A study of Mus musculus with 36 samples.

Results

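Fibroblast growth factors (FGFs) and the receptors through which they act were examined in differentiating brown adipocytes. The genes described encode 5 FGF ligands (*Fgf1*, *Fgf2*, *Fgf7*, *Fgf10* and *Fgf21*), 3 receptors (*Fgfr1*, *Fgfr2* and *Fgfr3*) and the co-receptor β-klotho (*Klb*). They were chosen by name, and all were found among the 55536 genes of the count files, whose identifiers were matched to symbols with the GENCODE M21 annotation. The set therefore holds 9 of 55536 genes.

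RNA sequencing data came from 36 libraries of mouse brown pre-adipocyte lines. In 2 clones, numbered 48 and 66, both copies of *Rxra* had been disrupted with Cas9 in a clonal line, and each clone then received a retrovirus for wild-type RXRα (RxraWT) or for RXRα with the S22A substitution (RxraSA), which removes the serine at residue 22. Cells were sampled when confluent in medium with insulin and triiodothyronine (day 0), after 2 days with added dexamethasone, isobutylmethylxanthine and indomethacin (day 2), and on day 6, after return to insulin and triiodothyronine alone. Each of the 12 combinations of clone, genotype and day had 3 replicates. All cells thus shared the *Rxra*-/- background, the vector and its hygromycin selection, and every *Rxra*-/- line was 1 clone. Clone 48 was sequenced in library pool 1 and clone 66 in pool 2, so that clone and pool cannot be told apart. The deposited design calls the 3 replicates technical whereas the methods describe independent ones, and the p-values may therefore measure technical spread.

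FGFs of the paracrine type, here *Fgf1*, *Fgf2*, *Fgf7* and *Fgf10*, bind heparan sulfate on the cell surface and activate receptor tyrosine kinases, which signal through adaptor proteins to the MAP kinase ERK. FGF21 is an endocrine FGF with weak affinity for heparan sulfate, and it needs β-klotho next to an FGF receptor, chiefly FGFR1, in order to signal. FGF7 and FGF10 act mainly on the epithelial splice form of FGFR2. In adipose tissue, FGF1 and FGF10 have been linked to adipogenesis, FGF2 to the growth of precursors, and FGF21 to thermogenic and metabolic responses. Splice forms could not be distinguished in counts per gene.

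Total counts lay between 11351078 and 24349263 per library, with a median of 18338726. *Rxra* was read in every library, and its counts scaled to library size (CPM) had medians of 166 in RxraWT and 170 in RxraSA at day 0. The medians of the 2 genotypes were 570 and 555 CPM on day 2 and 236 and 244 CPM on day 6. The clones still carry the edited gene and the vector, so this level does not tell the 2 alleles apart. All 7 adipocyte markers, among them *Adipoq* and *Plin1*, rose between days 0 and 6. Of 7 brown markers 4 had enough counts to be tested, and all 4 were higher at day 6 than at day 0. *Ucp1*, which was not among them, was at most at 0.307 CPM in any library. *Cox8b* reached 25.7 to 49.7 CPM and *Ppargc1a* 10.2 to 29.6 CPM at day 6, and *Elovl3* was at 1.19 to 14.3 CPM at day 2. The summed level of 4 endothelial markers stayed between 0.157 and 1.18 CPM and that of 3 epithelial markers at or below 0.56 CPM. Of the leukocyte markers *Ptprc* and *Adgre1* were at or near 0, whereas *Cd68* stood at 5.17 to 11.3 CPM at day 6. Of the muscle markers *Myod1* was at 0 in all 36 libraries, whereas *Acta1* stood at 5.67 to 11.6 CPM at day 6. In bulk RNA, fewer cells of a type and less RNA per cell cannot be told apart.

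The bases before the start sites of *Klb*, *Fgf7* and *Fgf21* are shown because these genes changed most between days. They were taken from RefSeq promoter windows on GRCm38.p6, which hold 250 bases before and 50 after a start site, without the bases that GENCODE M21 annotates as exon. Each runs 5′ to 3′ on the strand of the gene, in lower case, with every match to a searched motif on either strand in capitals. *Klb* is shown over chr5:65348161-65348313 (+), *Fgf7* over chr2:126034408-126034657 (+) and *Fgf21* over chr7:45615491-45615740 (−).
Klb: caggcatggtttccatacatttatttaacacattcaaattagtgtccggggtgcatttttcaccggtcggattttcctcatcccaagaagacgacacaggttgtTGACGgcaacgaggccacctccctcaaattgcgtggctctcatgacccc
Fgf7: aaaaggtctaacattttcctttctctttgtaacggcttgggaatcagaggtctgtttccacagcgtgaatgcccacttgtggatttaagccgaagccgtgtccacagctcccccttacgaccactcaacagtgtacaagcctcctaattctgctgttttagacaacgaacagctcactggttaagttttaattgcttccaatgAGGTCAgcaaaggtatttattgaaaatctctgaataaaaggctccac
Fgf21: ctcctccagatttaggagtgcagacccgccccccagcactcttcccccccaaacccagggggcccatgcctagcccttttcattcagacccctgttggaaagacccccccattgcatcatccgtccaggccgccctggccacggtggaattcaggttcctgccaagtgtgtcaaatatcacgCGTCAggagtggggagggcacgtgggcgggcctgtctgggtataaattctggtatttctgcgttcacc

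The motifs searched on both strands were AGGTCA, the half-site that nuclear receptors such as RXR recognise, the direct repeat of AGGTCA with any 1 base between the copies, which PPARγ and RXR bind as a pair, TGACG, the core of the cyclic AMP response element, and TTGCNNAA, a core of sites for C/EBP factors. A direct repeat counts also as a half-site. The *Fgf7* window held 1 AGGTCA, and the *Klb* and *Fgf21* windows each held 1 TGACG. No other match was found in these 3 windows. Among all 32851 windows of the table, 16.3% held AGGTCA, 20.8% TGACG, 10.8% TTGCNNAA and 0.0396% the direct repeat. Of the 9 genes, 7 had a window, and the other matches were 2 TGACG in the *Fgf2* window. These matches describe letters, and no binding was measured.

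The genes lie on the following places of GRCm38 in GENCODE M21. *Fgf1* covers chromosome 18, 38838673 to 38929472, on the minus strand. *Fgf2* covers chromosome 3, 37348346 to 37410108, and *Fgf7* chromosome 2, 126034658 to 126091185, both on the plus strand. *Fgf10* is on the plus strand of chromosome 13, 118669791 to 118792115, and *Fgf21* on the minus strand of chromosome 7, 45613886 to 45615490. Among the receptors, *Fgfr1* extends over chromosome 8, 25513654 to 25575718, on the plus strand. *Fgfr2* extends over chromosome 7, 130162451 to 133123350, on the minus strand, and *Fgfr3* over chromosome 5, 33721674 to 33737068, on the plus strand. *Klb* lies at 65348314 to 65384007 on the plus strand of the same chromosome. Counting did not use the strand, and read pairs that fell on exons of more than 1 gene were left out. *Fgf2* shares 640 of its 6782 exon bases with *Nudt6* on the opposite strand and 255 with Gm43439, and *Fgfr3* shares 998 of 7158 with G630022F23Rik. *Fgfr2* shares 314 of 10328 exon bases with *Ctbp2*, *Fgf10* shares 2.67% with Gm16263, and *Fgfr1* shares 164 of 9875 with Gm16159. The levels of these 5 genes are uncertain to that extent.

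Between days the whole set moved, as did most of the transcriptome. From day 0 to day 2, 73.3% of the 16723 genes that passed the filter on low counts had an adjusted p-value under 0.05 (35.8% higher and 37.5% lower). All 9 genes passed this filter, and all 9 changed, 5 upwards and 4 downwards. From day 2 to day 6, 62% of all genes changed (31.9% higher and 30.1% lower), and again 5 of the 9 genes rose and 4 fell. From day 0 to day 6, 68.3% of all genes changed (32.9% higher and 35.4% lower), and 5 of the 9 rose and 2 fell. When counts were scaled by library size only, 33.6% of called genes were higher at day 2 than at day 0 in place of 48.9%, and 34.9% were higher at day 6 than at day 0 in place of 48.2%, while no called change of the 9 genes turned. Because a pass was common, the sizes are given beside the count. The median absolute log2 fold change of the 9 genes was 1.12, 2.03 and 1.83 in these comparisons, beside 0.62, 0.43 and 0.49 over all tested genes. The 9 genes were chosen with earlier results of these data known, so these sizes describe the set and do not test it. In all comparisons of days, both genotypes were averaged and the clone was a term of the model. Values are CPM scaled by TMM, and 3 values in a row are the lowest, the median and the highest of 6 libraries.

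**Figure D1:**
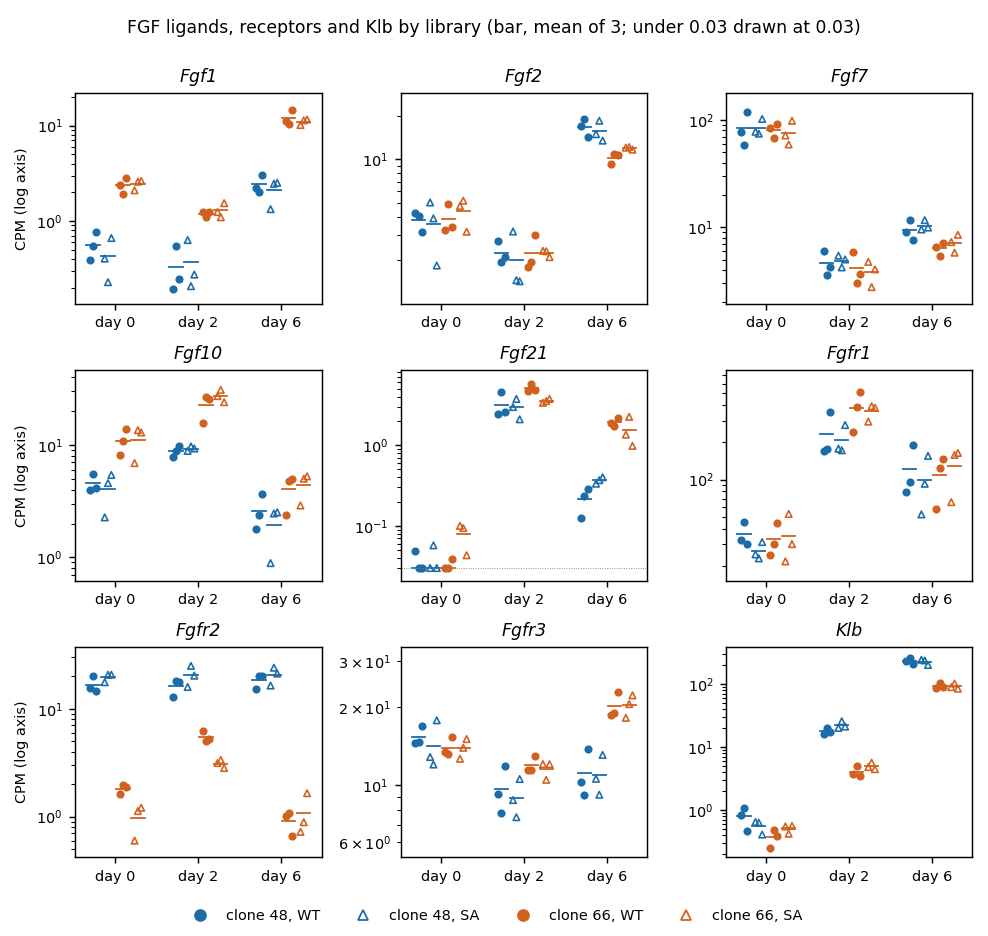
Level of each gene in every library in CPM (log axis) by day. Points are single libraries of clone 48 (blue) and clone 66 (orange), filled circles RxraWT and open triangles RxraSA, with a bar at the mean of 3 replicates and values under 0.03 drawn at 0.03. *Fgf7* falls from at least 58.7 CPM in every library at day 0 to at most 5.98 at day 2, *Klb* climbs on both steps, and *Fgfr2* lies lower in clone 66 than in clone 48 on every day.

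*Fgf7*, a growth factor made by mesenchymal cells that acts on epithelia, was the most abundant ligand at day 0. Its level there was 58.7, 77.8 and 119 CPM in clone 48 and 59.3, 78.2 and 98.5 CPM in clone 66. At day 2 it was 3.59, 4.65 and 5.98 CPM in clone 48 and 2.77, 3.85 and 5.93 CPM in clone 66. At day 6 it was 7.54, 9.75 and 11.7 CPM and 5.42, 6.88 and 8.52 CPM, in the same order. The day 0 libraries stood apart from all others, and in clone 66 the ranges of days 2 and 6 overlapped. *Fgf7* fell 18.7-fold between days 0 and 2 (log2 fold change -4.22, SE 0.14, adjusted p = 7.22e-24), by -4.18 in clone 48 alone and -4.26 in clone 66 alone. It then rose 1.88-fold to day 6 (log2 fold change 0.91, SE 0.13, adjusted p = 2.91e-07) and remained 9.96-fold under day 0. The 4 tested pre-adipocyte markers fell over the same step, and the summed level of the list of 5 went from 255 to 465 CPM at day 0 to 33.7 to 104 CPM at day 2. The part of this decline in that of *Fgf7* was not tested.

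*Fgf10*, the closest relative of *Fgf7* and a mesenchymal factor known from adipose development, instead peaked at day 2. In clone 48 it was at 2.27, 4.35 and 5.57 CPM at day 0, 7.87, 9.09 and 9.85 CPM at day 2 and 0.889, 2.42 and 3.63 CPM at day 6. In clone 66 the corresponding levels were 6.91, 11.9 and 13.8 CPM, 15.6, 26.2 and 31.0 CPM, and 2.37, 4.86 and 5.26 CPM. Day 2 lay above both other days in each clone without overlap. The rise to day 2 was 2.18-fold (log2 fold change 1.12, SE 0.17, adjusted p = 2.92e-07) and the later fall 4.90-fold (log2 fold change -2.29, SE 0.18, adjusted p = 2.19e-13).

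*Fgf1* and *Fgf2*, which lack a classical secretion signal, dipped at day 2 and were highest at day 6. *Fgf2* was at 1.84, 3.98 and 5.02 CPM in clone 48 and 3.15, 4.08 and 5.17 CPM in clone 66 at day 0. It was at 1.43, 2.02 and 3.16 CPM and at 1.79, 2.21 and 3.00 CPM at day 2, and at 13.4, 15.9 and 19.0 CPM and at 9.20, 11.2 and 12.1 CPM at day 6. Every day 6 library lay above every earlier one, whereas in clone 48 days 0 and 2 overlapped. The fall to day 2 was 1.78-fold (adjusted p = 1.60e-05) and the rise from day 2 to day 6 was 6.14-fold (log2 fold change 2.62, SE 0.16, adjusted p = 2.83e-16). *Fgf1*, read with only 3 to 15 counts per library in clone 48 before day 6, behaved alike in direction. Its level was 0.229, 0.475 and 0.763 CPM at day 0, 0.195, 0.262 and 0.633 CPM at day 2 and 1.33, 2.35 and 3.06 CPM at day 6 in clone 48. In clone 66 it was 1.91, 2.49 and 2.80 CPM, 1.10, 1.24 and 1.54 CPM, and 10.1, 11.2 and 14.5 CPM. The day 6 libraries of a clone did not overlap with its earlier ones. *Fgf1* rose 8.15-fold between days 2 and 6 (log2 fold change 3.03, SE 0.16, adjusted p = 6.45e-18). Its fall to day 2 (log2 fold change -0.82, SE 0.17, adjusted p = 5.59e-05) was -0.92 in clone 66 alone (adjusted p = 4.43e-05), and -0.53 with an adjusted p of 0.23 in clone 48 alone. Without the clone term its adjusted p was 0.104.

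*Fgf21*, the endocrine ligand, was practically unread at day 0 and appeared at day 2. At day 0 the 12 libraries held 8 counts in all and none held more than 2, and 6 of them were at 0. At day 2 it was at 2.09, 2.79 and 4.56 CPM in clone 48 and 3.36, 4.197 and 5.70 CPM in clone 66. At day 6 it was at 0.124, 0.308 and 0.400 CPM and at 0.981, 1.79 and 2.25 CPM. The ranges of the 3 days did not overlap within either clone. Pooled over libraries, the rate at day 2 (755 counts) was 110 times that at day 0 (95% exact counting interval 55.3 to 255, which covers counting error only), and the fit gave an adjusted p of 1.30e-17. From day 2 to day 6 *Fgf21* fell 4.09-fold (log2 fold change -2.03, SE 0.23, adjusted p = 1.32e-09). Even at its peak the gene had only 37 to 103 counts per library.

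*Fgfr1*, the receptor through which FGF21 and β-klotho chiefly act, was the most abundant of the 3 receptors per exon length. It was at 22.9, 30.7 and 45.4 CPM in clone 48 and at 21.7, 30.0 and 52.6 CPM in clone 66 at day 0. It was at 170, 177 and 351 CPM and at 244, 385 and 515 CPM at day 2, and at 52.1, 94.0 and 191 CPM and at 57.7, 135 and 164 CPM at day 6. Day 0 lay below both later days in each clone. Days 2 and 6 overlapped in clone 48, where the replicates numbered 3 were the highest of both genotypes on each of these days. *Fgfr1* rose 8.88-fold to day 2 (log2 fold change 3.15, SE 0.23, adjusted p = 1.26e-14) and fell 2.50-fold to day 6 (log2 fold change -1.32, SE 0.21, adjusted p = 1.55e-06), which left it 3.56-fold over day 0.

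*Fgfr2*, whose epithelial splice form binds FGF7 and FGF10, moved in 1 clone. In clone 48 it was at 14.4, 18.8 and 20.7 CPM at day 0, 12.9, 18.01 and 24.9 CPM at day 2 and 15.3, 19.99 and 24.0 CPM at day 6, and all days overlapped. In clone 66 it was at 0.600, 1.42 and 1.96 CPM, 2.82, 4.16 and 6.27 CPM, and 0.661, 0.952 and 1.65 CPM. Day 2 stood above both other days there. The averaged changes passed the test (log2 fold change 0.82, SE 0.24, adjusted p = 0.0031 to day 2, and -0.89, SE 0.24, adjusted p = 0.0020 to day 6), but they did not hold in both clones. Alone, clone 66 gave 1.65 (SE 0.20, adjusted p = 1.43e-06) and -2.03 (SE 0.21, adjusted p = 3.38e-07), and clone 48 gave -0.0083 (SE 0.15, adjusted p = 0.97) and 0.12 (SE 0.15, adjusted p = 0.52). Without a clone term neither averaged change passed (adjusted p = 0.78 and 0.87).

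*Fgfr3*, which is best known from growing cartilage, changed little when averaged over the clones. Its level was 11.98, 14.6 and 17.7 CPM in clone 48 and 12.6, 13.6 and 15.3 CPM in clone 66 at day 0. It was 7.50, 8.98 and 11.8 CPM and 10.5, 11.7 and 12.9 CPM at day 2, and 9.14, 10.4 and 13.8 CPM and 18.1, 19.7 and 22.7 CPM at day 6. The day 6 libraries of clone 66 stood above both other days of their clone, and in clone 48 day 2 lay below day 0 without overlap. The fall to day 2 (log2 fold change -0.47, SE 0.12, adjusted p = 6.03e-04) was -0.69 in clone 48 alone (adjusted p = 0.0013) and -0.22 with an adjusted p of 0.068 in clone 66 alone. The rise from day 2 to day 6 (log2 fold change 0.54, SE 0.12, adjusted p = 1.77e-04) was 0.79 in clone 66 alone (adjusted p = 4.58e-06) and 0.28 with an adjusted p of 0.17 in clone 48 alone.

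*Klb*, the co-receptor that gives FGF21 its target cells, had the largest change of the set. It was at 0.409, 0.639 and 1.09 CPM in clone 48 and 0.255, 0.450 and 0.561 CPM in clone 66 at day 0, which is 5 to 18 counts per library. At day 2 it was at 16.3, 20.1 and 25.7 CPM and at 3.49, 4.64 and 5.66 CPM. At day 6 it was at 201, 234 and 260 CPM and at 84.9, 90.4 and 103 CPM. No day overlapped with another in either clone. *Klb* rose 18.5-fold between days 0 and 2 (log2 fold change 4.21, SE 0.18, adjusted p = 7.59e-21), 14.9-fold between days 2 and 6 (log2 fold change 3.90, SE 0.14, adjusted p = 6.55e-22), and 276-fold in all (log2 fold change 8.11, SE 0.19, adjusted p = 3.13e-28). The summed level of the 7 adipocyte markers rose beside it, from 128 to 228 CPM at day 0 to 3554 to 6166 CPM at day 2 and 6401 to 10373 CPM at day 6. All 7 rose to day 2, but from day 2 to day 6 only 5 rose. *Cebpa* (log2 fold change -0.57, adjusted p = 8.54e-04) and *Lipe* (-0.29, adjusted p = 0.042) fell on that step in edgeR's test.

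**Figure D2:**
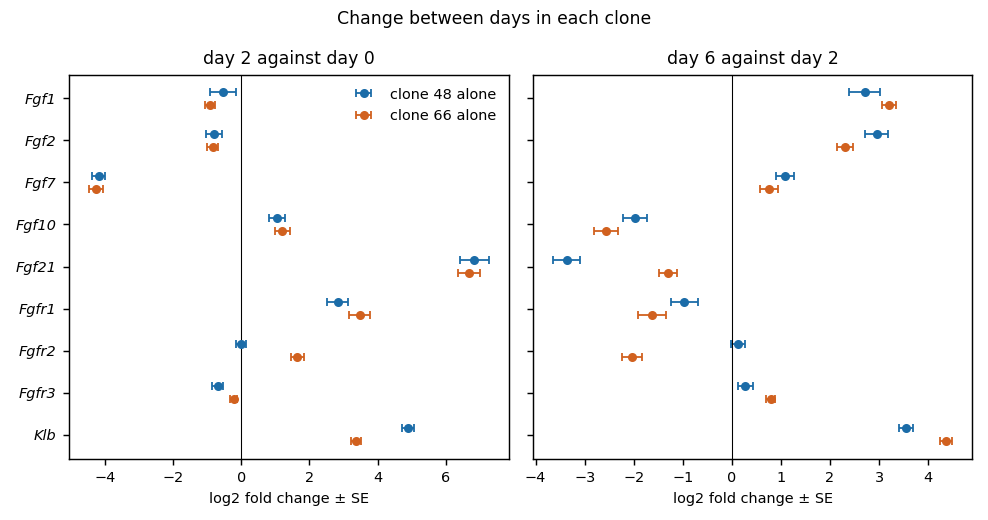
Log2 fold change (x axis, with standard error bars) of each gene from day 0 to day 2 and from day 2 to day 6 in clone 48 alone (blue) and clone 66 alone (orange), 6 libraries per clone and day. *Fgfr2* lies near 0 in clone 48 (-0.0083 and 0.12) and away from it in clone 66 (1.65 and -2.03), and *Fgf21* falls further to day 6 in clone 48 (-3.37) than in clone 66 (-1.30).

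Levels of different genes can be compared only per length of their exons. The length used here counts every annotated exon base of a gene and not the transcripts present, so orders of genes on this scale depend on it. On that scale *Fgf7* led at day 0, with a median of 24.0 CPM per kb in clone 48 and 24.1 in clone 66, and it made up 81.0% to 96.1% of the summed length-scaled level of the 5 ligands in every library of both clones. At day 2 *Fgf21* had the highest median of the ligands in clone 48 (2.93 CPM per kb, beside 1.98 for *Fgf10*), and *Fgf10* in clone 66 (5.70 CPM per kb, beside 4.41 for *Fgf21*). The ranges of these 2 ligands did not overlap in clone 48, at 2.20 to 4.79 CPM per kb for *Fgf21* and 1.71 to 2.14 for *Fgf10*, and overlapped in clone 66, at 3.53 to 5.99 and 3.39 to 6.74. In CPM without the length the order in clone 48 was the reverse, with medians of 2.79 for *Fgf21* and 9.09 for *Fgf10*. At day 6 *Fgf7* and *Fgf2* had overlapping ranges in clone 48, with medians of 3.00 and 2.35 CPM per kb. In clone 66 the medians of *Fgf7*, *Fgf1*, *Fgf21* and *Fgf2* lay between 1.66 and 2.12 CPM per kb, and neighbours in that order overlapped, whereas *Fgf1* (1.85 to 2.66) and *Fgf2* (1.36 to 1.79) did not.

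Among the receptors *Fgfr1* took a median of 43.4% of the summed length-scaled level at day 0 in clone 48 and 58.9% in clone 66. Its share rose to 86.9% and 95.1% at day 2 and was 74.3% and 82.1% at day 6. *Fgfr2* held 24.4%, 6.87% and 14.3% on these days in clone 48, and 2.45%, 0.947% and 0.719% in clone 66. *Klb* passed *Fgfr1* at day 6, with 44.2 to 57.2 against 5.28 to 19.4 CPM per kb in clone 48 and 18.7 to 22.6 against 5.85 to 16.6 CPM per kb in clone 66. These ranges did not overlap in either clone. In CPM without the length, *Klb* stayed above *Fgfr1* in clone 48 (201 to 260 against 52.1 to 191). In clone 66 the CPM ranges overlapped, and the median was lower for *Klb* (90.4) than for *Fgfr1* (135).

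**Figure D3:**
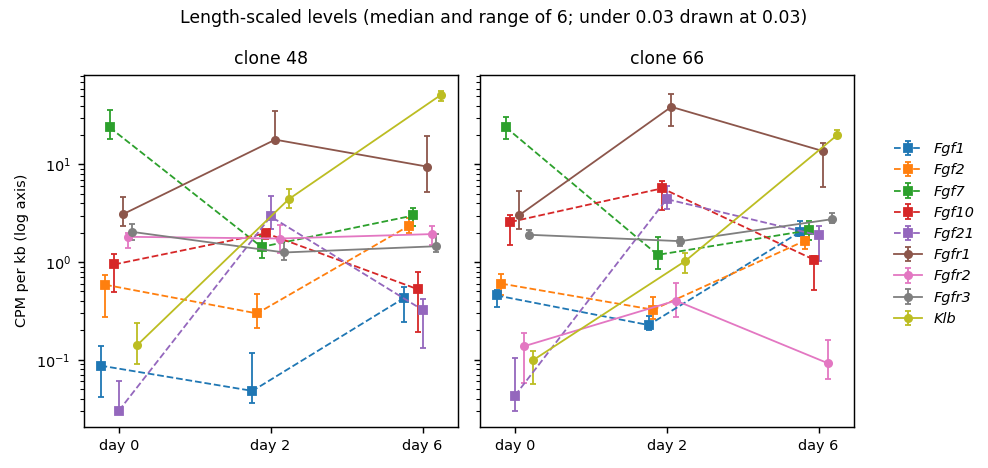
Median level per exon length in CPM per kb (log axis) of the ligands (squares, dashed lines) and of the receptors and *Klb* (circles, solid lines) by day in each clone. Bars span the lowest to the highest of 6 libraries and values under 0.03 are drawn at 0.03. *Fgf7* leads at day 0 (24.0 and 24.1 CPM per kb in clones 48 and 66), *Fgfr1* at day 2 (17.97 and 39.0) and *Klb* at day 6 (51.5 and 19.9).

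The clones differed in several of the genes. At day 0, 23.7% of all tested genes differed between the clones (12.6% higher and 11.1% lower in clone 66), and 3 of the 9 genes did, 2 higher and 1 lower. At day 2 these figures were 30% of all genes (14.5% higher and 15.5% lower) and 5 of the 9, of which 3 were higher. At day 6 they were 26.2% (13.4% higher and 12.8% lower) and 8 of the 9, of which 4 were higher. With library size alone, 41.0% of the calls at day 6 were higher in clone 66 in place of 51.2%. Averaged over the genotypes, *Fgfr2* was 13.4-fold, 4.40-fold and 19.3-fold lower in clone 66 at days 0, 2 and 6, with log2 fold changes of -3.75 (SE 0.18, adjusted p = 2.00e-15), -2.14 (SE 0.17, adjusted p = 4.198e-11) and -4.27 (SE 0.19, adjusted p = 2.65e-16). *Fgf1* was 4.76-fold, 3.52-fold and 5.07-fold higher in clone 66 (adjusted p = 1.48e-08, 5.61e-06 and 1.42e-10). *Fgf10* was 2.54-fold, 2.75-fold and 1.86-fold higher (adjusted p = 1.01e-04, 1.77e-05 and 0.0097), and its last difference had an adjusted p of 0.089 without clone 48 replicate 1, 0.091 without clone 66 replicate 2 and 0.088 without clone 66 replicate 3. The ranges of the clones did not overlap for *Fgfr2* and *Fgf1* on any day, nor for *Fgf10* at days 0 and 2.

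*Klb* was lower in clone 66, by 4.44-fold at day 2 (log2 fold change -2.15, SE 0.13, adjusted p = 6.46e-14) and 2.48-fold at day 6 (log2 fold change -1.31, SE 0.12, adjusted p = 6.56e-10). At day 0 its difference of -0.58 had an adjusted p of 0.092. *Fgf21* at day 6 was 5.94-fold higher in clone 66 (log2 fold change 2.57, SE 0.27, adjusted p = 2.50e-08), and *Fgfr3* was 1.83-fold higher on that day (log2 fold change 0.88, SE 0.13, adjusted p = 3.51e-06). Of the 7 adipocyte markers, *Adipoq* was also lower in clone 66 at day 2 (log2 fold change -3.00, SE 0.30, adjusted p = 7.15e-09) and *Slc2a4* was higher, and none passed the test at day 6. Of 4 tested brown markers 1 was higher and 2 were lower in clone 66 at day 2, and 3 were lower at day 6. The summed level of the 7 adipocyte markers was lower in clone 66 without overlap on both days, at 4696 to 6166 CPM in clone 48 and 3554 to 4485 CPM in clone 66 at day 2, and at 7947 to 10373 CPM and 6401 to 7735 CPM at day 6. Such a sum weighs abundant markers most, and at day 2 *Adipoq* was the only 1 of the 7 that passed as lower. *Fabp4*, *Lipe* and *Cebpa* did not pass at day 2 (log2 fold change -0.23, -0.18 and -0.14, adjusted p = 0.39, 0.51 and 0.49 in edgeR's test). The part of these markers in the difference of *Klb* was not tested. Smaller differences passed the test with all replicates but not with every replicate number of a clone left out. *Fgf2* and *Fgf7* were lower in clone 66 at day 6 (log2 fold change -0.55, SE 0.19, adjusted p = 0.029, and -0.54, SE 0.18, adjusted p = 0.029), and *Fgfr3* was higher at day 2 (0.34, SE 0.13, adjusted p = 0.044). *Fgf2* no longer passed without clone 48 replicate 2 (adjusted p = 0.197) or without any 1 replicate of clone 66 (adjusted p from 0.0728 to 0.0875), at log2 fold changes of -0.43 and from -0.51 to -0.58. *Fgf7* no longer passed without clone 48 replicate 1 (-0.58, adjusted p = 0.0591), clone 48 replicate 2 (-0.41, 0.163) or clone 66 replicate 2 (-0.43, 0.12). *Fgfr3* no longer passed without clone 48 replicate 1 or 2 or without any 1 replicate of clone 66 (adjusted p from 0.0975 to 0.265, log2 fold changes from 0.22 to 0.38), and its adjusted p was 0.0829 with library size alone and 0.163 without a filter. *Fgfr1* differed by 0.74 at day 2 (SE 0.30, adjusted p = 0.058), and this difference passed without clone 48 replicate 3 (1.10, adjusted p = 0.0071), without clone 66 replicate 1 (0.92, adjusted p = 0.013), without a filter (adjusted p = 0.0066) and with DESeq2 (adjusted p = 0.048). *Klb* at day 0 passed without clone 48 replicate 3 (adjusted p = 0.018) and, with all libraries, in edgeR's newer quasi-likelihood test (0.029). *Fgf21* at day 2, which differed by 0.47 (adjusted p = 0.061), passed without clone 48 replicate 2 (0.011) and, with all libraries, under the filter of 1 CPM (0.049).

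The clones were then compared in their change between days, as the difference of the log2 fold changes of clone 66 and clone 48. From day 0 to day 2, 6.84% of all genes differed in this way (3.61% with a higher and 3.23% with a lower change in clone 66) and 2 of the 9 did. *Fgfr2* rose more in clone 66 (1.61, SE 0.24, adjusted p = 3.81e-05) and *Klb* rose less (-1.57, SE 0.25, adjusted p = 7.46e-05). From day 2 to day 6 the figures were 6.18% (3.15% and 3.03%) and 3 of the 9. *Fgfr2* fell in clone 66 and not in clone 48 (-2.13, SE 0.25, adjusted p = 8.25e-07), *Klb* rose more in clone 66 (0.84, SE 0.17, adjusted p = 0.0015), and *Fgf21* fell less in clone 66 (2.10, SE 0.34, adjusted p = 1.32e-04). From day 0 to day 6 they were 3.85% (2.1% and 1.75%) and 1 of the 9. With library size alone, 43.3% of these calls over all genes were higher in clone 66 in place of 54.7%. That gene was *Fgfr3* (0.96, SE 0.18, adjusted p = 9.14e-04), which rose in clone 66 alone by 0.57 (SE 0.099, adjusted p = 9.65e-05) and fell in clone 48 alone by 0.41 (SE 0.16, adjusted p = 0.037), so that its average over clones was 0.066 (SE 0.12, adjusted p = 0.63). With the replicate number of a clone as a block, *Fgfr3* also differed from day 0 to day 2 (0.43, adjusted p = 0.0033) and from day 2 to day 6 (0.54, adjusted p = 4.04e-04), and *Fgf2* from day 0 to day 6 (-0.73, adjusted p = 0.039). Their adjusted p-values without the block were 0.17, 0.070 and 0.18. From day 2 to day 6, *Fgf2* also passed without clone 48 replicate 1 (adjusted p = 0.039) and *Fgfr3* without clone 48 replicate 3 (0.044).

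The question of the study was whether the S22A substitution of RXRα alters gene expression during differentiation. With edgeR's quasi-likelihood test, 0% of all tested genes and none of the 9 genes passed for RxraSA against RxraWT on any day, with 139, 162 and 125 of the 16723 genes at an unadjusted p under 0.05 at days 0, 2 and 6. DESeq2 also gave 0 genes on each day, with 233, 258 and 231 at an unadjusted p under 0.05. These counts are below what chance alone gives at that p, so both tests, which did not use the pairs of same-numbered libraries, were conservative. With these libraries fitted as pairs in edgeR, 704, 692 and 477 genes had an unadjusted p under 0.05. In that fit 0, 1 and 0 genes passed at days 0, 2 and 6, and none of the 9 did. None of the 9 genes had an unadjusted p under 0.05 in any of these comparisons. Apart from *Fgf21* at day 0, which had too few counts for a fold, the log2 differences of the 9 genes lay between -0.43 (*Fgfr2* at day 2, SE 0.34) and 0.31 (*Klb* at day 2, SE 0.19), with standard errors from 0.17 to 0.44. The change between days also did not differ between the genotypes for any of the 9 (0% of all genes, and 144, 153 and 128 at an unadjusted p under 0.05, with 0 genes by DESeq2 and 266, 253 and 231 at an unadjusted p under 0.05).

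**Figure D4:**
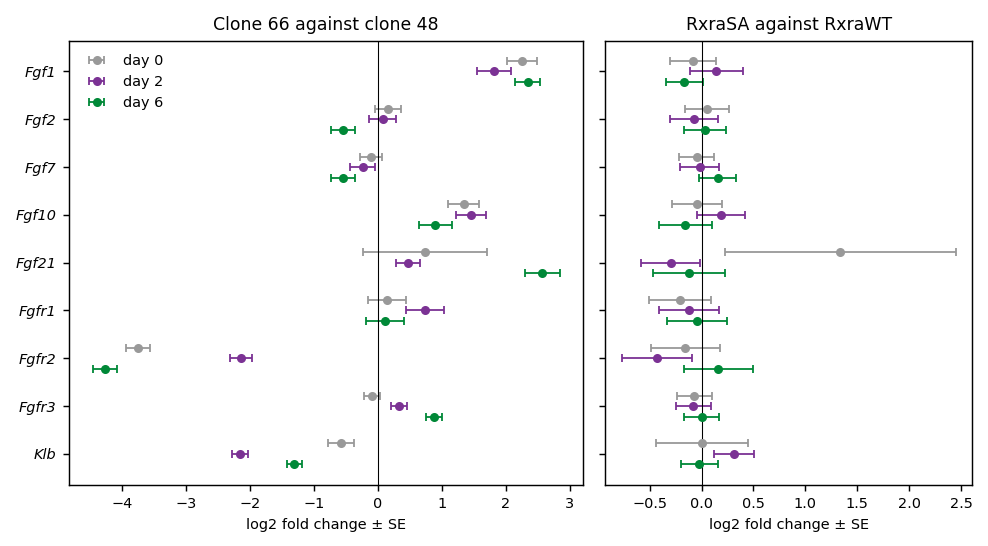
Log2 fold change (x axis, with standard error bars) of clone 66 against clone 48 (left) and of RxraSA against RxraWT (right) for each gene at days 0 (grey), 2 (purple) and 6 (green). Clone differences reach -4.27 for *Fgfr2* and 2.57 for *Fgf21* at day 6, while no genotype difference passed the test. The wide bar of *Fgf21* at day 0 rests on 8 counts in all.

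Direction by genotype was the same in 6 of 6 same-numbered pairs for *Klb* at day 2 and for *Fgf7* at day 6 (log2 difference 0.16, SE 0.18), with RxraSA higher in both. *Klb* at day 2 was at 16.3, 20.03 and 17.1 CPM in RxraWT and 20.2, 25.7 and 21.2 CPM in RxraSA in replicates 1, 2 and 3 of clone 48. In clone 66 it was at 3.69, 4.98 and 3.49 CPM in RxraWT and 4.82, 5.66 and 4.47 CPM in RxraSA. The genotypes did not overlap in clone 48 and overlapped in clone 66, and edgeR's test without pairs gave an unadjusted p of 0.11 and an adjusted p of 1. With same-numbered libraries of a clone and day fitted as pairs, edgeR's test gave a log2 difference of 0.32 (SE 0.073, adjusted p = 0.87). *Fgfr2* in clone 66 was at 1.63, 1.96 and 1.88 CPM in RxraWT and 0.600, 1.13 and 1.21 CPM in RxraSA at day 0. At day 2 the RxraWT values were 6.27, 4.98 and 5.29 CPM and the RxraSA values 3.14, 3.35 and 2.82 CPM, and at day 6 they were 1.02, 1.07 and 0.661 CPM and 0.724, 0.889 and 1.65 CPM. The genotypes did not overlap at days 0 and 2 and overlapped at day 6. *Fgfr2* in clone 48 was higher in RxraSA in 3 of 3 pairs on each day, with overlapping ranges. The other cases without overlap were *Fgf2* at day 6 and *Fgf21* at days 0 and 2 in clone 66, and *Fgf21* at day 6 in clone 48, with RxraSA lower only for *Fgf21* at day 2. At day 0 *Fgf21* in clone 66 had 1 count in all in RxraWT and 5 in RxraSA. How many of all tested genes show such separation or such agreement of pairs was not counted. The difference between the clones in the effect of genotype on *Fgfr2* was -1.12 at day 0 (SE 0.35, unadjusted p = 0.0036, adjusted p = 0.98) and -1.14 at day 2 (SE 0.33, unadjusted p = 0.0016, adjusted p = 1) in edgeR's test. It did not pass over all genes, where 0% passed and 283 and 214 genes had an unadjusted p under 0.05, and DESeq2 gave 0 genes with 322 and 258 at an unadjusted p under 0.05.

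The other genes of the pathway were taken from fixed lists. Of 17 other FGF ligands, 15 did not pass the filter on low counts, and the other 2, *Fgf9* and *Fgf22*, had at most 20 and 15 counts in any library. Among the 15, *Fgf11* reached 25 counts (median 0.982 CPM in clone 48 at day 6) and *Fgf14* reached 18 (median 0.823 CPM in clone 66 at day 0). *Fgfr4* had at most 7 counts and *Kl*, the klotho that serves FGF23, at most 1. *Fgfrl1*, a receptor that lacks the kinase domain, rose from medians of 45.8 CPM in clone 48 and 48.1 in clone 66 at day 0 to 284 and 173 at day 2 and stood at 237 and 232 at day 6. Its rise to day 2 was 4.50-fold (log2 fold change 2.17, SE 0.10, adjusted p = 6.24e-20).

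Of 10 feedback inhibitors, which damp receptor and ERK signalling, 6 rose and 3 fell from day 0 to day 2, beside 35.8% and 37.5% of all tested genes, and none rose and 5 fell from day 2 to day 6, beside 31.9% and 30.1%. *Spry4* rose 29.1-fold to day 2 (log2 fold change 4.87, SE 0.35, adjusted p = 1.63e-14) and fell 2.37-fold to day 6, and *Spry1* fell 5.05-fold from day 2 to day 6. *Il17rd* fell 4.19-fold to day 2. In clone 66 *Spry4* was higher than in clone 48 on every day, with medians of 5.52, 175 and 61.0 CPM against 2.14, 37.0 and 26.3 CPM at days 0, 2 and 6 (log2 fold change 1.61, 1.76 and 1.54, adjusted p = 0.023, 0.0031 and 0.010). *Dusp6*, an ERK phosphatase, was also higher in clone 66 at day 0 (log2 fold change 1.14, SE 0.37, adjusted p = 0.023). Of the 10 inhibitors, 5, 6 and 4 were higher in clone 66 at days 0, 2 and 6, among them *Spry1* at day 2 (1.16) and *Spred2* at day 6 (0.58), and 0, 1 and 0 were lower. Over all tested genes, 12.6%, 14.5% and 13.4% were higher in clone 66 and 11.1%, 15.5% and 12.8% lower. Of 7 ERK-induced targets, 1 rose and 4 fell from day 0 to day 2, beside 35.8% and 37.5% of all tested genes. *Myc* rose 4.37-fold and *Ccnd1*, which drives entry into the cell cycle, fell 4.54-fold and then a further 2.95-fold to day 6. At day 0, 4 of the 7 were higher in clone 66, among them *Ccnd1* (2.67-fold), beside 12.6% of all tested genes. At day 2 only 1 was higher and 0 were lower, beside 14.5% and 15.5%, and at day 6, 1 was higher and 1 lower, beside 13.4% and 12.8%.

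Among 15 tested FGF-binding and heparan sulfate genes, 5 rose and 7 fell from day 0 to day 2, and 3 rose and 5 fell from day 2 to day 6. The shares over all tested genes were 35.8% and 37.5% on the first step and 31.9% and 30.1% on the second, so that these counts lay near the background. From day 0 to day 6, 2 of the 15 were higher and 9 lower, beside 32.9% and 35.4% of all tested genes. *Sulf2*, which removes sulfate groups from heparan sulfate, rose 3.49-fold to day 2 and fell 3.87-fold to day 6, and the syndecan *Sdc3* fell 19.7-fold and then rose 6.12-fold. *Gpc6* was 4.14-fold lower at day 6 than at day 0. Between the clones *Sdc1* was 2.38-fold lower and *Gpc1* 2.36-fold higher in clone 66 at day 0, and *Sdc2* was 2.99-fold and *Sdc3* 2.76-fold higher at day 2. All 18 genes of the adaptor and MAP kinase route were tested, and 9 rose and 5 fell from day 0 to day 2, which is also near the 73.3% called over all genes. *Mapk3*, which encodes ERK1, fell 2.36-fold to day 2 and rose 2.52-fold to day 6, as *Gab1* fell 2.36-fold and rose 1.98-fold. *Map2k1* was 2.06-fold higher and *Frs2*, the docking protein of FGF receptors, 1.66-fold lower at day 6 than at day 0. Between the clones, *Sos2* was 1.48-fold lower and *Nras* 1.44-fold higher in clone 66 at day 0, and *Shc1* was 1.57-fold and *Braf* 1.4-fold higher at day 2. None of the genes of these lists differed between the genotypes on any day in edgeR's test.

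Genes whose level followed that of a member most closely over the 36 libraries were sought where the mean log2 CPM was 3 or more. Pearson's r of the log2 CPM is given as a description, since the libraries share days and clones. *Klb* was most alike to *Cfd*, the adipokine adipsin (r = 0.990), and to 4930511E03Rik (0.983), and 57 of 9725 genes reached 0.95. For *Fgf7* these were *Swap70* and *Cnn2* (both 0.984), with 84 genes at 0.95 or more. *Fgfr1* followed *Prkce* (0.977) and *Col4a1* (0.975), a chain of basement membrane collagen, and *Fgf21* followed *Cth* (0.973) and *Rnf185* (0.969). *Fgf10* was most alike to *Gja1* (0.954), which encodes a gap junction protein, and *Slc12a2* (0.916). *Fgf2* was most alike to *Ctsb* (0.946) and *Pbx2* (0.943), and *Fgf1* to Gm20633 (0.936) and *Gmppa* (0.926). *Fgfr2* followed *Klhl23* (0.904) and *Ebf2* (0.899), and *Fgfr3* followed *Slc26a11* (0.863) and *P4hb* (0.853).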

How the data were processed

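Gene counts of 36 libraries were used. RNA was made into stranded total RNA libraries and sequenced in pairs. The authors mapped reads to the GRCm38 primary assembly with STAR 2.7.0d and obtained counts per gene of GENCODE M21 through featureCounts 1.6.2. The deposited counts are not normalized, and exon lengths stand beside them. Strand was not used, and pairs on more than 1 gene were left out.

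Groups and replicate numbers came from the sample labels. After filterByExpr (edgeR 4.0.16, minimum count 10) and TMM scaling, edgeR's quasi-likelihood test in its earlier form was run in R 4.3.3, with Benjamini-Hochberg adjustment over 16723 genes and a threshold of 0.05. Following the study's methods, each combination of genotype with day had its own term beside the clone. Comparisons of clones used a term for each of the 12 groups. Standard errors were derived from the F statistic. CPM per kb is CPM divided by exon length. Summaries used Python 3.11.15 with pandas 2.3.3, numpy 2.4.6, scipy 1.17.1 and matplotlib 3.10.9. The fits were tested on simulated counts. These were drawn independently for each library with a common dispersion, so deviations shared by same-numbered libraries were not covered.

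The genes and pathway lists were chosen with earlier results of these data known. Named are all members, the genes that share exon bases with them, the 2 genes most alike to each, and, from each pathway list and comparison of days or clones, called genes among the 2 with the largest change (mean log2 CPM 2 or more). *Fgf9*, *Fgf11*, *Fgf14*, *Fgf22*, *Fgfr4* and *Kl* were named for their place in the pathway.

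Same-numbered RxraWT and RxraSA libraries of a clone and day deviated from their group means together (r from 0.176 to 0.930 over 9381 genes, 18 pairs), so the numbers were taken as pairs, and an alternative fit blocked on them. For clones on a given day the block could not be fitted, since the numbers lie within clones. No replicates were duplicates (chi-square per degree of freedom from 13.5 to 215). The other alternatives were clone-specific groups, no clone term, edgeR's newer and robust tests, DESeq2 1.42.0, scaling by RLE or by library size only, filtering dropped or set to 1 CPM in 6 libraries, the compared days or 1 clone alone, and each replicate left out.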

Additional observations from a re-analysis of the deposited data

Results flagged for a closer look

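The following results were set apart because the change between days differed between the clones by a test of that difference, which was given above with its error. The values are differences of log2 fold changes, clone 66 minus clone 48. From day 0 to day 2 they were 1.61 for *Fgfr2* and -1.57 for *Klb*. From day 2 to day 6 they were 2.10 for *Fgf21*, -2.13 for *Fgfr2* and 0.84 for *Klb*. From day 0 to day 6 the value was 0.96 for *Fgfr3*. Library pool coincides with clone, and the 2 cannot be told apart. Groups of 3 replicates are too small for a test of single outlying samples, and none was made.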

How the results depend on the processing

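For comparisons of days, 530 of 540 values of single genes under an alternative kept their direction and their side of the threshold, and for comparisons of clones 353 of 378 did. All values for genotype (566), for genotype with time (513) and for clone with genotype (432) stayed without a call. *Fgfr2* reversed in clone 48 alone, at -0.0083 from day 0 to day 2 and 0.12 from day 2 to day 6. Of the 9 genes, 8 differed between clones at day 6, and 5 to 8 did with 1 replicate of a clone left out, the 5 without clone 66 replicate 2, when *Fgf2*, *Fgf7* and *Fgf10* no longer passed. With the replicate block, 2 of the 9 genes in place of 1 differed between clones in their change from day 0 to day 6, with *Fgf2* added, and the block changed no other call of the 9 genes than those given above. Over all genes, calls of a different change between clones went from 1144 to 2248 (day 0 to day 2), from 1033 to 2082 (day 2 to day 6) and from 644 to 1369 (day 0 to day 6) with the block, and fell as low as 574, 537 and 316 without clone 48 replicate 2. With the block within each day, 1 gene differed between the genotypes at day 2 in place of 0, and 4, 1 and 3 genes differed between the clones in the effect of genotype at days 0, 2 and 6 in place of 0. At day 0 these were 3 with the block across days and 5 without a filter. Library size alone shifted the median log2 fold change over all genes by -0.26 from day 0 to day 2 and by -0.19 from day 0 to day 6. Counts limit *Fgf21* at day 0 and *Fgf1* in clone 48 most.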
